A study of Homo sapiens with 4 samples.

Results

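Expression of the ST8SIA sialyltransferases and of NCAM1, NCAM2, NRP2 and CADM1 was examined in LNCaP95 prostate cancer cells and in LN95(KO) cells. These are 10 of the 60880 genes in the count table, and each symbol was matched to 1 Ensembl identifier. The genes were listed by family and function, after ST8SIA4 had been seen to be almost absent from the knockout line, so the values of LN95(KO) against LNCaP95 are given as a description of these genes and no test of them is quoted. LNCaP95 is a subline of the LNCaP line of human prostate cancer that grows without androgen. LN95(KO) was derived from it with CRISPR vectors against UGT2B17, an enzyme that couples androgens to glucuronic acid. The sample labels and the study's methods name this line as LN95, and the study states that it was made from LNCaP95. The design text of the series writes LNCaP(UGT2B17 KO), so that the parent line rests on the labels and the study's own text. RNA-Seq libraries were made from untreated cells of both lines in medium with charcoal-stripped serum, 2 per line (LNCaP95 replicates 1 and 2 with genotype WT, LN95(KO) replicates 3 and 4 with genotype UGT2B17 KO). How many clones make up the knockout line is not stated, and the labels do not say that the 2 libraries of a line came from separate cultures, so the spread between them may be technical.

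Polysialic acid is a long chain of sialic acid residues that is built onto a few cell surface glycoproteins in the Golgi. It is bulky and negatively charged, and on the neural cell adhesion molecule NCAM1 it weakens contacts between cells in the developing brain and in some tumors. Within the ST8SIA family, ST8SIA2 and ST8SIA4 are the polysialyltransferases. ST8SIA3 makes short chains, ST8SIA1 and ST8SIA5 extend the sialic acid of gangliosides, which are glycolipids, and ST8SIA6 acts mainly on O-linked glycans. NCAM1, the semaphorin and VEGF receptor NRP2 and the adhesion molecule CADM1 can carry polysialic acid. NCAM2 is a paralog of NCAM1 that is not an established carrier.

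The libraries held 17330338 to 18813193 gene reads. UGT2B17, the targeted gene, had 2788 and 2748 counts in LNCaP95 against 21 and 20 in LN95(KO). Reads that did not align made up 3.85% to 3.96% of the entries in LNCaP95 and 7.71% to 8.05% in LN95(KO); the part of this difference in the results was not tested. Luminal prostate markers were present in both lines (8 of 8 tested, summed level 3250 to 3262 CPM in LNCaP95 and 3290 to 3385 CPM in LN95(KO)), where CPM is the counts per 1e6 reads after TMM scaling. The similar sums do not mean that each marker was unchanged. Of these 8, 2 were higher and 1 was lower in LN95(KO) past the thresholds used for all genes below. The 6 leukocyte markers summed to at most 0.508 CPM. The 6 stromal markers, of which 4 were tested, summed to 33.5 to 34.5 CPM in LNCaP95 and 36.1 to 39.4 CPM in LN95(KO), and only DCN of these was at 0 in every library.

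ST8SIA4 was the dominant family member in LNCaP95 and was nearly absent in LN95(KO). ST8SIA4 (ENSG00000113532.12_2) spans 100142637 to 100238986 on chromosome 5 (GRCh37, minus strand), and its canonical transcript has 5 exons. It had 2940 and 2830 counts in LNCaP95 against 1 and 0 in LN95(KO). Both LNCaP95 libraries were thus high and close to each other, and the groups did not overlap. In bulk RNA, fewer cells with a transcript and less of it per cell cannot be told apart. The level was 157 ± 3.37 CPM in LNCaP95 and 0.0282 ± 0.0399 CPM in LN95(KO) (SD, n = 2 libraries each), the latter below the 0.164 to 0.169 CPM that 3 counts correspond to in those libraries. The ratio of pooled scaled counts was 5641 in favor of LNCaP95, with a 95% counting interval of 1012 to 222837 (exact binomial, counting error only). The LN95(KO) level rests on a single read, in replicate 3. The fitted log2 fold change of -12.14 (SE 0.18) became -14.49 when LN95(KO) replicate 3 was left out and -11.27 when replicate 4 was. This SE comes from the test statistic and is narrower than the counting interval. It does not give the error of a fold change that rests on a single read.

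The promoter window of ST8SIA4 is shown because this gene had the largest difference of the 10, with that of NCAM2 as the only other member that passed the filter and had a window. RefSeq windows (GRCh38.p14, 300 bases around the gene start) were listed for 5 of the 10 genes, and each matched GRCh37 at 1 place. Capitals mark CG dinucleotides, the target of DNA methylation in promoters. The ST8SIA4 window is chr5:100238937-100239236 of GRCh37, minus strand, and the NCAM2 window is chr21:22519230-22519529, plus strand, which lies inside the longer NCAM2 gene model used here.
ST8SIA4: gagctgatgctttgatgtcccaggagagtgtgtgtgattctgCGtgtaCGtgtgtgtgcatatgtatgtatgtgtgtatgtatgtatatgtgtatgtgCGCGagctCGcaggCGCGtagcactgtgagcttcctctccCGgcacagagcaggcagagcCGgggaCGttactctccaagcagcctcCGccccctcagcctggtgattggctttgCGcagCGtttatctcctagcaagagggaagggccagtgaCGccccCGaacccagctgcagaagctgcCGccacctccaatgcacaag
NCAM2: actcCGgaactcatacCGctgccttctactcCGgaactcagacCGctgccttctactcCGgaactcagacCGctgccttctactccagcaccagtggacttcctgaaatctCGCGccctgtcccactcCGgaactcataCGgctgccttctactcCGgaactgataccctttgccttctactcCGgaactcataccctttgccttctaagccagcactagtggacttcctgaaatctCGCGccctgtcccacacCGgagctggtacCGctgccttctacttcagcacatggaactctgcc
Each of the 2 windows held 16 CG dinucleotides, against a median of 14 over 35116 windows of the same length, and 33, 35 and 24 in the windows of NRP2, ST8SIA1 and ST8SIA3. The motif TATAAA was in 0 of these 5 windows on either strand and in 11.5% of all windows. CCGCCC, the core of GC boxes, was found 1 time in the ST8SIA4 window and not in the NCAM2 window, and in 45.0% of all windows. Methylation and factor binding were not measured in these samples.

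ST8SIA2, the other polysialyltransferase, was scarce in both lines and higher in LN95(KO). ST8SIA2 (chromosome 15, 92937111 to 93011958, plus strand) had 3 and 4 counts in LNCaP95 against 19 and 16 in LN95(KO), without overlap. The level was 0.190 ± 0.0394 CPM in LNCaP95 and 0.974 ± 0.139 CPM in LN95(KO), and the log2 fold change was 2.31 (SE 0.50). Despite this difference, ST8SIA2 in LN95(KO) was far below ST8SIA4 in LNCaP95. Per length of the canonical transcript, ST8SIA2 stood at 0.172 ± 0.0246 RPKM (CPM per kilobase of transcript) in LN95(KO) and ST8SIA4 at 24.8 ± 0.534 RPKM in LNCaP95.

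**Figure D1:**
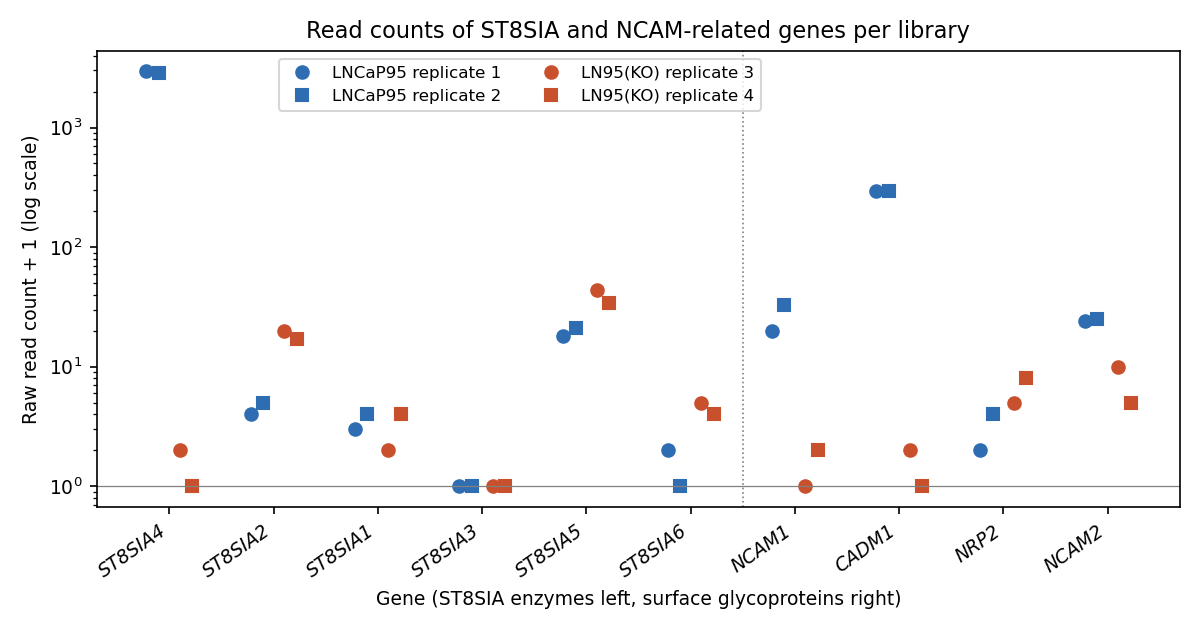
Raw read counts plus 1 on a log axis for the 10 genes, with 1 point per library (blue LNCaP95, red LN95(KO); circles and squares are the 2 replicates of a line). ST8SIA4 and CADM1 stand at 293 to 2940 counts in LNCaP95 and at 1 and 0 in LN95(KO), while ST8SIA2 and ST8SIA5 are higher in LN95(KO).

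The remaining family members were low in both lines. ST8SIA5, which acts on gangliosides (chromosome 18, 44247784 to 44339220, minus strand), had 17 and 20 counts in LNCaP95 against 43 and 33 in LN95(KO). Its groups did not overlap, and the log2 fold change was 1.07 (SE 0.29), close to the 2-fold line; it was 0.95 without LNCaP95 replicate 1 and 0.85 without LN95(KO) replicate 3. Exons of another annotated gene cover 4.29% of the exon bases of ST8SIA5. ST8SIA1, the GD3 synthase (chromosome 12), had 2 and 3 counts against 1 and 3, so that the groups overlapped, and the ratio LN95(KO) over LNCaP95 of 0.818 had a counting interval of 0.162 to 3.80. No difference of ST8SIA1 was detectable at this depth.

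ST8SIA6 (chromosome 10) had 1 and 0 counts in LNCaP95 against 4 and 3 in LN95(KO), giving a ratio of 7.16 with a counting interval of 0.920 to 323. The groups did not overlap, but the interval includes a ratio of 1. ST8SIA6 and ST8SIA1 did not pass the filter on low counts. ST8SIA3 (chromosome 18, 55019788 to 55038962) had 0 counts in all 4 libraries, which allows up to 0.162 to 0.169 CPM per library.

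The make-up of the family therefore differed between the lines. ST8SIA4 made up 99.2% (95% Wilson interval 98.8 to 99.5) and 99.1% (98.6 to 99.3) of the summed ST8SIA counts in LNCaP95, but 1.47% (0.260 to 7.87) and 0% (0 to 6.53) in LN95(KO). The summed counts of the 6 genes were 2963 and 2857 in LNCaP95 against 68 and 55 in LN95(KO), with ST8SIA5 and ST8SIA2 holding most of the latter.

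Of the carriers, CADM1 was the most abundant in LNCaP95 and nearly absent in LN95(KO). CADM1 encodes an immunoglobulin-type adhesion molecule that joins epithelial cells and synapses (chromosome 11, 115039938 to 115375675, minus strand; 12 exons in the canonical transcript). It had 293 and 294 counts in LNCaP95 against 1 and 0 in LN95(KO). As for ST8SIA4, 1 read in LN95(KO) replicate 3 was the only one in the knockout libraries. The level was 15.9 ± 0.125 CPM against 0.0282 ± 0.0399 CPM, and the ratio of pooled scaled counts was 574 in favor of LNCaP95 (counting interval 103 to 22704). The fitted log2 fold change of -8.85 (SE 0.34) was -11.19 when LN95(KO) replicate 3 was left out and -7.97 when replicate 4 was. This SE is likewise narrower than the counting interval and does not give the error of the fold change.

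NCAM1, the main carrier of polysialic acid, was scarce in LNCaP95 and had a single read in LN95(KO). NCAM1 (chromosome 11, 112831997 to 113149158, plus strand; 22 exons in the canonical transcript) had 19 and 32 counts in LNCaP95 against 0 and 1 in LN95(KO). The LNCaP95 libraries differed more from each other than for CADM1 (1.39 ± 0.507 CPM), and the groups did not overlap. The ratio was 49.9 in favor of LNCaP95, with a counting interval of 8.56 to 2007. The fitted log2 fold change of -5.33 (SE 0.75) was -7.66 when LN95(KO) replicate 4 was left out and -4.50 when replicate 3 was. Here too the SE is narrower than the counting interval and does not give the error of the fold change. Exons of other genes cover 7.89% of the exon bases of NCAM1, and its antisense gene NCAM1-AS1 had 0 counts in every library.

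NCAM2 (chromosome 21, 22370727 to 22915650, plus strand) had 23 and 24 counts in LNCaP95 against 9 and 4 in LN95(KO). Every LNCaP95 value was above every LN95(KO) value, with a log2 fold change of -1.80 (SE 0.43), which was -2.50 when LN95(KO) replicate 3 was left out and -1.31 when replicate 4 was. NRP2 (chromosome 2, 206546714 to 206662857, plus strand) was near the detection limit in both lines, with 1 and 3 counts in LNCaP95 against 4 and 7 in LN95(KO). The NRP2 ratio LN95(KO) over LNCaP95 was 2.81 with a counting interval of 0.834 to 12.1, so that a difference was not detectable at this depth.

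In all, 6 of the 10 genes passed the filter on low counts, and these 6 met the thresholds used for all genes below (2 higher and 4 lower in LN95(KO)). The background share of calls was 18.0% of the 15626 genes tested, 8.86% higher and 9.13% lower, and the 2 lines did not overlap in 79.8% of them. Nothing is read from the members' count, because the genes were chosen on this comparison and some passed the filter only through the line in which they are high. ST8SIA5, at 2.09-fold, lay just past the fold threshold, and no tested member lay short of it.

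**Figure D2:**
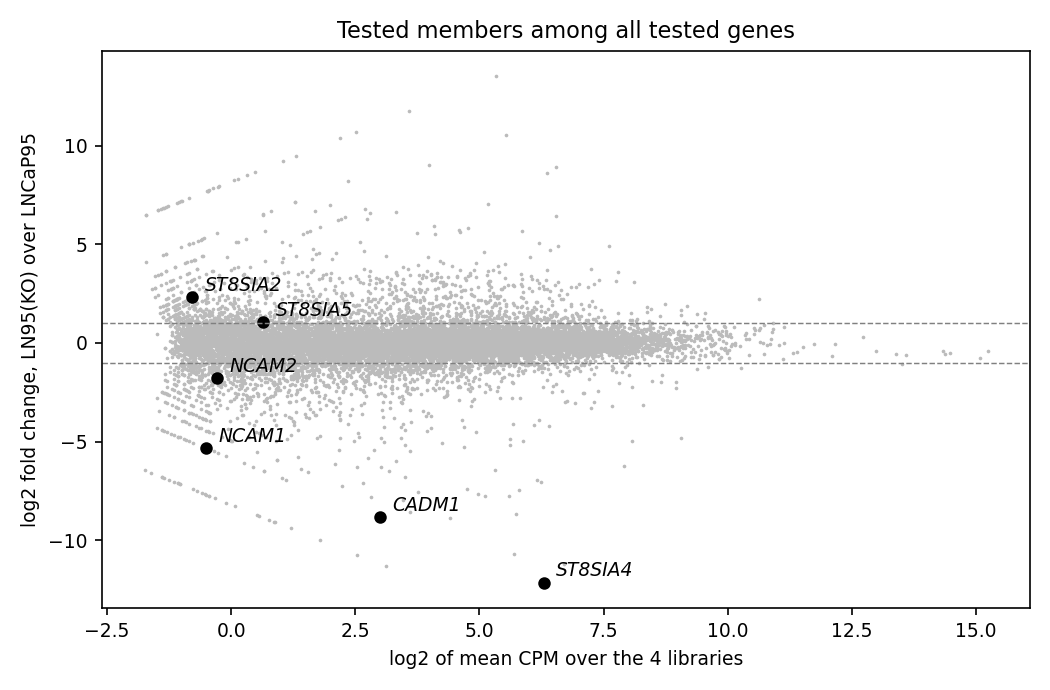
Fitted log2 fold change (LN95(KO) over LNCaP95) against the log2 of mean CPM over the 4 libraries for the 15626 genes tested (grey), with the 6 tested members in black and dashed lines at a 2-fold change. ST8SIA4 combines a level of 157 CPM in LNCaP95 with a fitted change of -12.14, while NCAM1, NCAM2, ST8SIA2 and ST8SIA5 sit at the low end of expression; changes of genes with 0 or 1 read in a line depend on the fit.

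Levels were ordered per transcript length within each line. In LNCaP95 the order was ST8SIA4 at 24.8 ± 0.534 RPKM, CADM1 at 1.84 ± 0.0144 RPKM, NCAM1 at 0.238 ± 0.0871 RPKM and NCAM2 at 0.159 ± 0.00564 RPKM (SD, n = 2 libraries). The last 2 were within their spread of each other. ST8SIA5 followed at 0.0723 ± 0.00868 RPKM and ST8SIA2 at 0.0336 ± 0.00697 RPKM. In LN95(KO) the highest were ST8SIA2 at 0.172 ± 0.0246 RPKM and ST8SIA5 at 0.152 ± 0.0316 RPKM, which did not differ beyond their spread, and then NRP2 at 0.0458 ± 0.0167 RPKM and NCAM2 at 0.0452 ± 0.0254 RPKM, which did not either. ST8SIA4, CADM1 and NCAM1 were at 0.00325 to 0.00470 RPKM in LN95(KO), each from 1 read.

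Read sharing between these genes was small. Of the windows of 50 bases in their transcripts, 0 were shared between any pair of the 10 genes, and the share found in any other gene ranged from 0% for ST8SIA2, ST8SIA3, NCAM2 and CADM1 to 5.75% for NCAM1. Counting did not use strand, so reads from a gene and an overlapping gene on the other strand could not be told apart.

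The genes whose level over the 4 libraries was most like that of ST8SIA4 were LUZP2, DAB1, PRSS1, TOX3 and PLPPR1, by the root mean square difference of log2 CPM (prior count 2, n = 4 libraries). This difference was 0.47 for LUZP2, a leucine zipper protein, 0.72 for DAB1, an adaptor of reelin signalling, 1.08 for the trypsinogen PRSS1, 1.39 for the nuclear protein TOX3 and 1.42 for PLPPR1, a brain phospholipid phosphatase-related protein. LUZP2 had 3901 and 3816 counts in LNCaP95 against 2 and 1 in LN95(KO). PLPPR1, the fifth, had 1283 and 1248 counts against 6 and 5. These genes lie on chromosomes 11, 1, 7, 16 and 9, none on chromosome 5 with ST8SIA4. PRSS1 has close paralogs, so its count is uncertain.

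Genes beside ST8SIA4 were compared next. Differential expression over all genes was tested with edgeR's quasi-likelihood test, and a gene was called past a 2-fold change if its Benjamini-Hochberg adjusted p was under 0.05. Of the 5 nearest protein-coding genes on each side, 7 were tested, and 2 were called lower and 0 higher. The 7 log2 fold changes ranged from -2.97 to -0.12. Over all genes tested, 18.0% were called in either direction. FAM174A, the nearest on the side of lower coordinates at a gap of 220 kb, encodes a small membrane protein. It had 3537 and 3341 counts in LNCaP95 against 397 and 461 in LN95(KO) and fell by 2.97 on the log2 scale (SE 0.07, adjusted p 2.59e-16). PAM, an enzyme that amidates peptide hormones, had 571 and 574 counts against 234 and 224 and fell by 1.29 (SE 0.09, adjusted p 1.49e-09). The nearest gene on the other side, SLCO4C1, had 0 counts in all libraries. GIN1 and PPIP5K2, at gaps of 2183 and 2217 kb on that side, had log2 fold changes of -0.20 (adjusted p 0.161) and -0.12 (adjusted p 0.165). On the side of lower coordinates, CHD1, RGMB and RIOK2 were also lower but short of a 2-fold change. Their log2 fold changes were -0.91 (adjusted p 3.39e-09), -0.49 (adjusted p 2.23e-05) and -0.24 (adjusted p 0.0088). Within 5 Mb on each side, 18 genes were tested, with 2 called higher and 2 called lower and a median log2 fold change of -0.26, against -0.01 over all genes tested.

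NCAM1 and CADM1 lie 1.89 Mb apart on chromosome 11, and the genes between them, looked up after their values were seen, were mixed in direction. Of the 10 genes tested in this interval, 3 were past the call thresholds higher and 2 lower in LN95(KO). Over all genes tested, 18.0% were past them in either direction. ZBTB16, a zinc finger repressor, had 1 and 0 counts in LNCaP95 against 183 and 183 in LN95(KO). HTR3A, a serotonin receptor subunit, had 0 and 0 counts against 13 and 17, and NNMT, which methylates nicotinamide, had 0 and 2 against 22 and 17. ANKK1 had 13 and 14 counts against 5 and 0, and REXO2, a mitochondrial exonuclease, had 3517 and 3485 against 1507 and 1602. On the far side of CADM1, the noncoding LINC00900 had 85 counts in each LNCaP95 library and 0 in both LN95(KO) libraries, at least 55.4-fold lower against a floor of 3 counts over the group. Within 1 Mb of CADM1, 4 genes were tested, and all 4 had log2 fold changes below 0 (median -1.02, 2 past the thresholds). This depended on the window. Within 5 Mb on each side, 87 genes were tested, NCAM1 among them, with 10 past the thresholds higher and 10 lower and a median of 0.09.

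**Figure D3:**
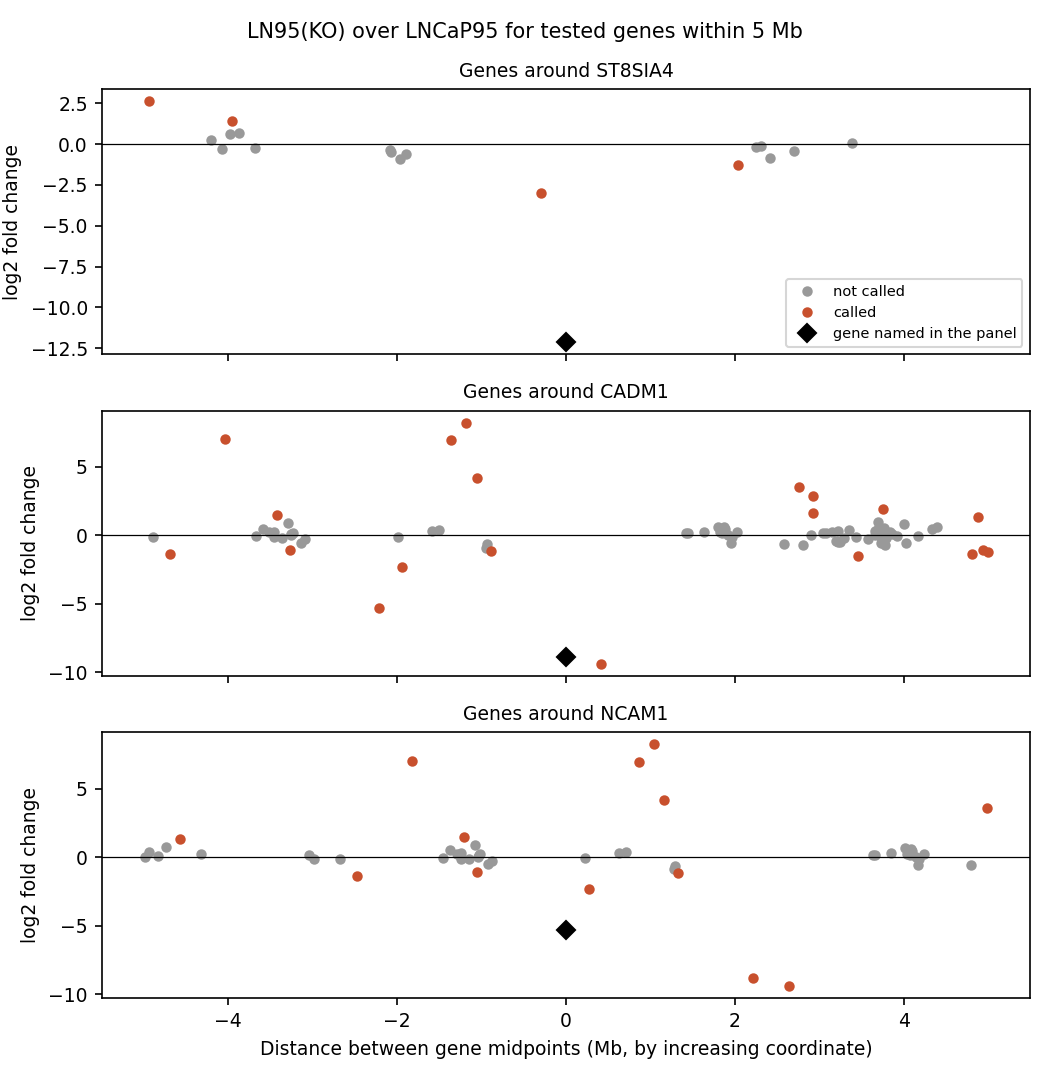
Fitted log2 fold change (LN95(KO) over LNCaP95) of tested genes within 5 Mb of ST8SIA4, CADM1 and NCAM1, by distance between gene midpoints in Mb; black diamonds are the named genes, red points are past the call thresholds and grey points are not. FAM174A is the only tested gene within 1 Mb of ST8SIA4, and called genes of both directions lie between NCAM1 and CADM1; values of genes with 0 or 1 read in a line depend on the fit.

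For the supply of sialic acid, RNA counts were read from a list of genes whose products make and deliver CMP-sialic acid, the donor of all sialyltransferases. Sialic acid and enzyme activity were not measured. Of 5 genes in this list, 4 were tested and 0 were called in edgeR or in DESeq2, with 1 at an unadjusted p under 0.05 in edgeR. NANS, the synthase of sialic acid, had 760 and 795 counts in LNCaP95 against 722 and 787 in LN95(KO), with a log2 ratio of -0.01 (SE 0.07, adjusted p 0.901). CMAS, which activates sialic acid, stood at 0.12 (SE 0.07, adjusted p 0.131), and the list's median was -0.00. The transporter SLC35A1 had -0.47 (SE 0.16, adjusted p 0.0161), short of a 2-fold change, with 55.5% of its exon bases shared with another gene. GNE, which begins the pathway, was too low to be tested, with 0 to 4 counts per library. In the later annotation used here, 0% of the exon bases of GNE are shared with another gene. Its overlap with other genes in the annotation used for counting was not checked. Low expression of GNE and reads left out as ambiguous therefore cannot be told apart. Of the 4 sialidases, which remove sialic acid, NEU3 and NEU4 were tested and 0 were called in edgeR or in DESeq2, with 1 at an unadjusted p under 0.05 in edgeR. NEU1 had at most 1 count and lies in the MHC region of chromosome 6, in which 62.9% of the 197 protein-coding genes had 0 counts in every library, the tubulin gene TUBB having 0 to 3, against 17.0% of other protein-coding genes, so its level is not known from these counts. The ganglioside gene B3GALT4 lies in the same stretch.

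Enzymes that build and cap N-glycans, on which polysialic acid is extended in NCAM1, were mostly short of a 2-fold change. No list of O-glycan genes was examined, so the acceptor glycans of every carrier are not covered. Of 13 genes, 10 were tested, 1 was called higher and 1 lower, and the median log2 fold change was -0.21. Of the 10 tested, 7 had an unadjusted p under 0.05 in edgeR. MGAT2 was not tested, with at most 1 count per library. Other genes share 92.0% of its exon bases, so its level is not known from these counts. MGAT4A, which adds a branch to N-glycans, had 222 and 221 counts in LNCaP95 against 82 and 54 in LN95(KO) and fell by 1.67 on the log2 scale (SE 0.17, adjusted p 1.85e-07, edgeR). ST3GAL6, a capping sialyltransferase, had 6 and 4 counts against 10 and 14 and rose by 1.27 (SE 0.51, adjusted p 0.0411, edgeR), with 12.1% of its exon bases shared with another gene. That call was lost without any single library (log2 fold changes of 1.02 to 1.58, adjusted p 0.106 to 0.288) and with DESeq2 (adjusted p 0.369). Of the 8 ganglioside genes, 7 were tested and only B4GALT6, a lactosylceramide synthase, was called, falling by 1.17 (SE 0.14, adjusted p 1.04e-06, edgeR), although all 7 had an unadjusted p under 0.05. ST3GAL5, which makes the GM3 on which ST8SIA1 acts, had 82 and 66 counts against 112 and 121 (log2 fold change 0.69). Among other reported carriers of polysialic acid only GLG1 was tested, at -0.16, and CCR7, CD36 and SCN2B had 0 to 4 counts per library.

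Partners of NCAM1 in signalling changed in both directions. Of 9 genes, 7 were tested, and 4 were called lower and 2 higher, against 18.0% of all genes tested in either direction. The list's median log2 fold change was -1.31. FGFR2, a fibroblast growth factor receptor, had 359 and 351 counts in LNCaP95 against 86 and 64 in LN95(KO) and fell by 2.21 on the log2 scale (SE 0.14, adjusted p 3.38e-10, edgeR). The kinase FYN fell by 1.38 (SE 0.11, adjusted p 8.52e-09) and FGFR1 by 1.31 (SE 0.12, adjusted p 5.57e-08). The spectrin SPTBN1 had 83 and 95 counts against 18 and 7 and its log2 fold change was -2.79 (SE 0.30, adjusted p 3.69e-07), which was -3.63 when LN95(KO) replicate 3 was left out and -2.24 when replicate 4 was. Overlap of SPTBN1 with other genes in the annotation used for counting was not checked, so its counts may leave out ambiguous reads. The 2 called higher are named here in view of their values. They were the receptor FGFR3, with 10 and 10 counts against 46 and 59 (log2 fold change 2.41), and the adhesion molecule L1CAM, with 11 and 16 against 38 and 35 (1.46). Both had low counts, and with a filter of at least 50 counts in 2 libraries the list had 0 called higher and 4 lower.

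Ligands and co-receptors of NRP2 numbered 14, of which 11 were tested. Of these, 1 was called higher and 3 lower, against 18.0% of all genes tested in either direction. The list's median log2 fold change was -0.43. SEMA3C, a secreted semaphorin, had 13 and 16 counts in LNCaP95 against 287 and 311 in LN95(KO) and rose by 4.39 on the log2 scale (SE 0.18, adjusted p 1.54e-12, edgeR). PLXNA2, a semaphorin co-receptor, had 491 and 494 counts against 48 and 40 and fell by 3.45 (SE 0.13, adjusted p 4.37e-13). FLT4, the VEGF-C receptor, fell by 2.38 (SE 0.17, adjusted p 2.54e-09). NRP1, the paralog of NRP2, had 1113 and 1093 counts against 463 and 531 and fell by 1.12 (SE 0.07, adjusted p 4.74e-10); NRP2 had at most 7 counts in any library.

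In the CADM family and its partners, 5 of 7 genes were tested, 1 was called higher and 1 lower, and the median log2 fold change was -0.91. CADM2, a paralog of CADM1, had 0 counts in both LNCaP95 libraries against 17 and 19 in LN95(KO). It was at least 12.3-fold higher against a floor of 3 counts over the group (adjusted p 1.3e-05, edgeR). EPB41L3, a membrane skeleton protein that binds CADM1, had 200 and 181 counts against 36 and 60 and fell by 1.95 on the log2 scale (SE 0.19, adjusted p 8.14e-08, edgeR). CADM4 and the scaffold kinase CASK had -0.91 and -0.98, both just short of a 2-fold change. CADM3 and CRTAM had 0 counts throughout. Over the 8 pathway and partner lists together, 47 of 64 genes were tested, 5 were called higher and 10 lower. Of all genes tested, 18.0% were called in either direction. The lists were chosen with earlier results of these data known, so nothing is read from this count.

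**Figure D4:**
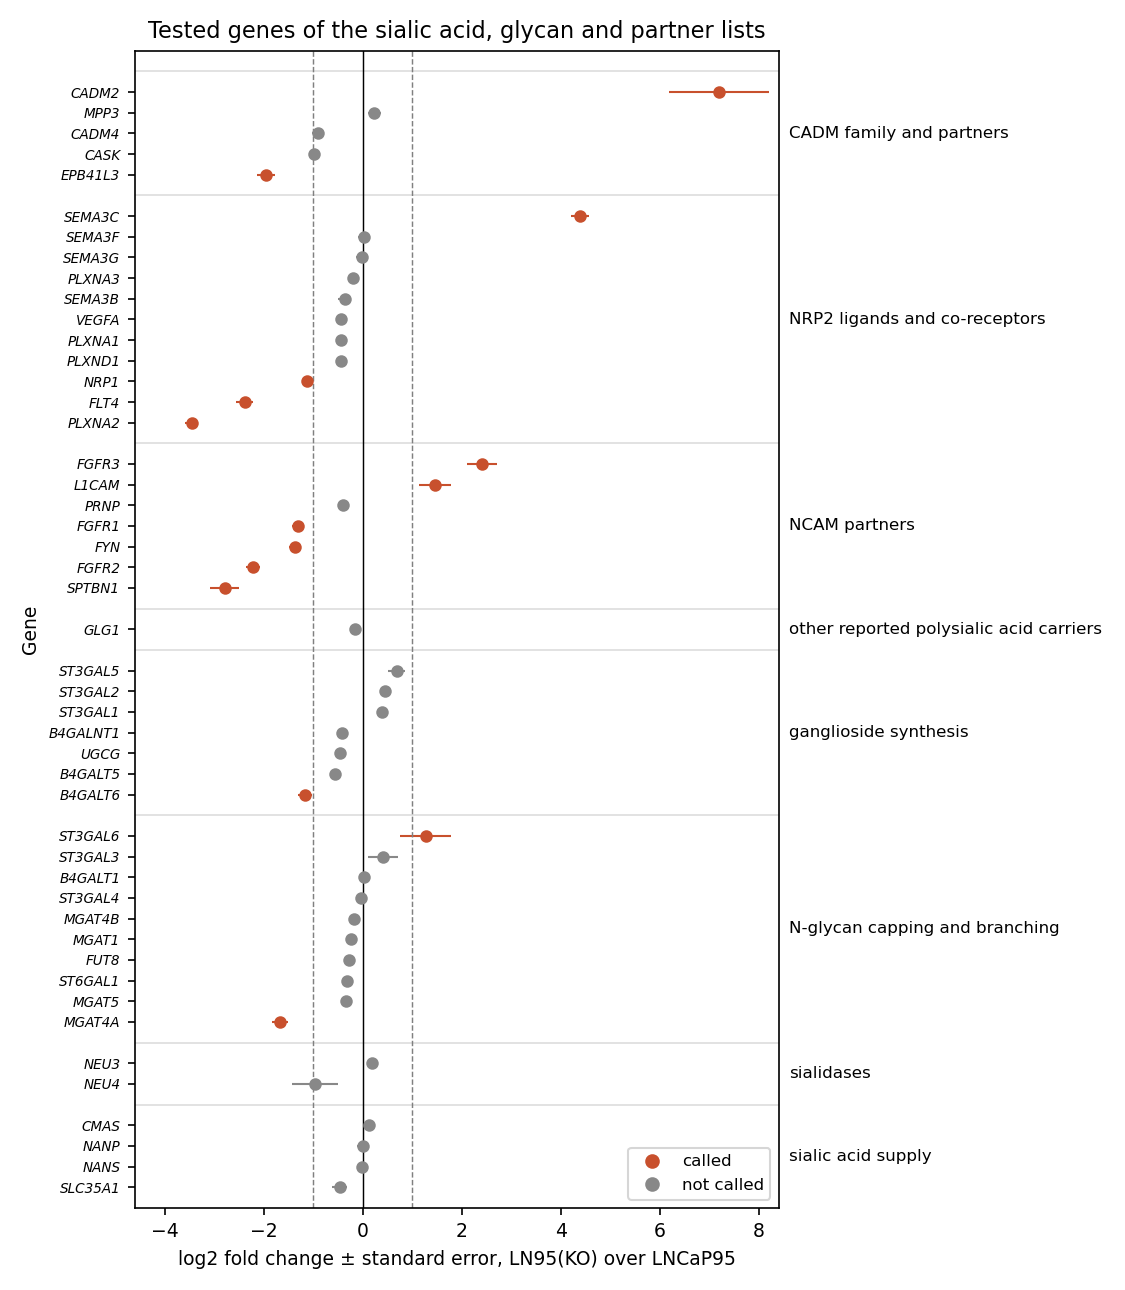
Log2 fold change (LN95(KO) over LNCaP95) with its standard error for the 47 tested genes of 8 lists, with called genes in red, other genes in grey and dashed lines at a 2-fold change. Genes of sialic acid supply lie between -0.47 and 0.12, while genes on both sides of the dashed lines appear among the partners of NCAM1, NRP2 and CADM1 (the value of CADM2, at 0 in LNCaP95, depends on the fit).

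NCAM1 is also used as a neuroendocrine marker, and the level of that marker list was lower in LN95(KO). The 10 other markers summed to 54.1 to 56.2 CPM in LNCaP95 and 15.1 to 15.7 CPM in LN95(KO), most of it the enolase ENO2. Of these, 4 were tested, 0 were called higher and 3 lower, among them ENO2 and POU3F2. Over all genes tested, 9.13% were called lower. CHGA, SCG3 and NEUROD1 were at 0 in all libraries, and SYP had 42 to 45 counts in each. The part of these genes in the NCAM1 values was not tested.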

How the data were processed

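The deposited values were raw counts of reads per gene, 1 file per library and 1 table of the series with the same counts (0 cells differed). Per the study's methods the authors used HISAT2 (version 2.1.0) for alignment to hg19 and made the counts with htseq on GENCODE release 29. Strand was not used. htseq leaves out reads on more than 1 gene or aligned more than once, which lowers genes with overlaps or copies. Its 5 summary lines were kept out.

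Identifiers were matched to symbols (59859 of 60880), and positions, exons and lengths came from release 44 of GENCODE lifted to GRCh37, which is the build of the counts with a later set of genes; overlap in release 29 was not checked. LN95(KO) was compared with LNCaP95 in edgeR (version 4.0.16, R version 4.3.3) with the quasi-likelihood test, robust estimation, TMM factors, filterByExpr (minimum count 10, total 15) and no covariate, leaving 15626 genes. Genes were called at a Benjamini-Hochberg adjusted p under 0.05 and a fold over 2, the study's thresholds. The study used DESeq2, run here as an alternative (version 1.42.0). Standard errors were obtained as the log2 fold change divided by the square root of F. For genes with 0 or 1 read in a line they understate the counting error. Scripts were tested on simulated data. Library pairs within a line differed by more than sampling noise (chi-square per degree of freedom 2.44 and 3.58). With 2 libraries against 2, adjusted p-values rest on dispersion shared across genes.

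CPM are counts per 1e6 of TMM-scaled library size, and RPKM divide them by the canonical transcript length. For 0 counts in a line a bound against 3 counts is given, and for 1 to 3 counts a ratio with a 95% exact interval. PCR copies were not marked, so intervals cover counting error only.

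The members and lists were chosen with earlier results of these data known. Named genes were the members, the called genes of each list (the 4 with the smallest adjusted p where over 4), the 5 genes nearest to ST8SIA4 in profile and its nearest neighbors; any other gene given with values was named after its values were seen, among them NANS, CMAS, SLC35A1, ST3GAL5, CADM4 and CASK. Marker lists covered luminal, neuroendocrine, stromal, leukocyte and endothelial cells. Values of some single marker genes are not reported here.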

Additional observations from a re-analysis of the deposited data

How the results depend on the processing

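Alternatives were DESeq2, RLE factors, library totals, no filter, a filter of at least 50 counts in 2 libraries, and leaving out each library. No paired analysis was possible because the lines share no replicate numbers. The direction of each tested member and of each called pathway gene was the same in every alternative that tested it. With the filter of 50 counts, 1760 genes were called in place of 2811, 2 members in place of 6 (ST8SIA4 and CADM1), and 1 gene of the CADM list in place of 2, since fewer low genes were then tested. The list of NCAM1 partners then had 4 called genes in place of 6, with 0 higher and 4 lower. The N-glycan list had 1 called gene in place of 2 under DESeq2, without a filter, with the filter of 50 counts, and without any library (1 to 1), because ST3GAL6 was lost; the cause was not tested. DESeq2 put 4 members past the thresholds, without ST8SIA5 and NCAM2. Leaving out a library gave 2539 to 2777 called genes and 5 to 6 members, ST8SIA5 being lost without LNCaP95 replicate 1 and without LN95(KO) replicate 3. Depth limits ST8SIA1, ST8SIA3, ST8SIA6 and NRP2, which had at most 7 counts in any library.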

Other observations

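The regions around the 2 polysialyltransferase genes hold paralogous neighbors, and these did not move alike; they were looked up after their values were seen, and no test of the pattern was run. Beside ST8SIA4 on chromosome 5 lie FAM174A, CHD1 and RGMB, and beside ST8SIA2 on chromosome 15 lie FAM174B, CHD2 and RGMA. FAM174A had 3537 and 3341 counts in LNCaP95 against 397 and 461 in LN95(KO), while FAM174B had 644 and 706 against 1540 and 1613 (log2 fold change 1.26). The chromatin remodelers CHD1 and CHD2 had log2 fold changes of -0.91 and 0.29. RGMB and RGMA, co-receptors of bone morphogenetic proteins, were both lower in LN95(KO), at -0.49 and -1.30. On the side of lower coordinates, the nearest gene to ST8SIA2 at a gap of 221 kb, the transporter SLCO3A1, had 105 and 87 counts in LNCaP95 against 2 and 0 in LN95(KO), and the synaptic vesicle gene SV2B, at a gap of 1091 kb, had 243 and 289 against 8 and 4. Of the 10 nearest protein-coding genes around ST8SIA2, 10 were tested, 4 were called higher and 3 lower. Over all genes tested, 18.0% were called in either direction.

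The antisense gene ST8SIA6-AS1, which lies within the span of ST8SIA6, had 1472 and 1353 counts in LNCaP95 against 1121 and 1201 in LN95(KO), although ST8SIA6 itself had at most 4 counts. Its log2 fold change was -0.25 (SE 0.06, adjusted p 0.00192, edgeR), short of a 2-fold change. The exons of the 2 genes do not overlap in the annotation used here (0% of ST8SIA6 exon bases are shared). VIM, the nearest protein-coding gene on the side of lower coordinates at a gap of 77.8 kb, which encodes the intermediate filament vimentin, had 292 and 303 counts in LNCaP95 against 2393 and 2319 in LN95(KO) (log2 fold change 3.02). The endothelial marker VWF, with 8 and 8 counts against 49 and 58, rose while PECAM1 was not matched by symbol and CDH5 and TEK were at 0 in all libraries, and of the stromal markers only LUM was called, with 24 and 19 counts against 0 and 0.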
